A study of Mus musculus with 15 samples.

Results

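The comparison described here is that of a high-fat with a low-fat diet in mice left with 1 kidney. It rests on 8 of the 15 kidney arrays of the study, 4 labelled HFD-UNX and 4 labelled LFD-UNX, chosen by these titles alone. HFD-UNX mice were male C57/BJ mice whose left kidney was removed (uninephrectomy, UNX) at 6 weeks of age, the adrenal gland having been freed beforehand, and which then ate a high-fat diet for 20 weeks. LFD-UNX mice had the same strain, sex, age and operation and ate a chow diet, which the labels also call low fat. The remaining kidney was harvested at the end of the diet, so each array measured 1 remnant kidney of 1 mouse. The protocol assigned 6 mice to a group, of which 4 per group are analysed here. All levels below are log2 signals of the brightest probe of a gene, relative to the 75th percentile of its array, and each difference is HFD-UNX minus LFD-UNX.

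Removal of a kidney makes the remaining one enlarge and filter more, and each surviving nephron then handles a larger load of salt, acid and nutrients. High-fat feeding exposes the same tubule cells to more fatty acids, which the proximal tubule takes up and oxidises as its main fuel, while it also makes glucose, produces ammonia and reabsorbs phosphate, sugars and organic ions. The questions a diet comparison in such mice can address are therefore which of these functions, and which signs of inflammation and injury, differ in the remnant kidney.

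In the HFD-UNX kidneys, the gluconeogenic enzyme gene Pck1 and the glucose transporter gene Slc5a1 were more than 2.0-fold higher than in the LFD-UNX kidneys, as were the lymphocyte genes Prf1, Cd3e, Cd79b and Cd22. Of 14 B-cell markers 6 passed as higher and 1, Cr2, as lower. Lower by more than 2.0-fold were the lipid genes Lpl and Angptl4, the glutathione synthesis gene Gclc, the angiotensin 1-7 receptor Mas1, the phosphate transporter Slc34a3 and the neutrophil genes S100a8 and S100a9. Of the genes just named, Slc5a1, Prf1, Cd79b, Cd22, Cr2 and Mas1 did not pass with another background correction (normexp). Once LFD-UNX arrays 3 and 4 were left out, Slc5a1, Cd79b, Cd22, Cr2, Lpl, Angptl4, Gclc, Mas1 and Slc34a3 did not pass. Genes of podocytes, interferon responses and ribosomal proteins had no member past the threshold of the test. Major urinary protein genes were far lower, and none of them passed either once those 2 of the 4 LFD-UNX arrays were left out.

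Diet coincided with scan day: all high-fat arrays were scanned on day 1 (HFD-UNX 1 and 2 on slide 1, HFD-UNX 3 and 4 on slide 2) and all low-fat arrays on day 2 (the 4 LFD-UNX arrays on slide 4). Diet and scan day cannot be told apart in any value below. Of the non-control spots, 69.4% to 70.3% were well above background on the HFD-UNX arrays and 60.5% to 65.6% on the LFD-UNX arrays. The mean net intensity of negative controls was 22.3 to 23.9 on the HFD-UNX and 53.3 to 66.9 on the LFD-UNX arrays, and on the normalised scale a negative-control probe lay at -8.45 ± 0.09 in HFD-UNX and -7.70 ± 0.32 in LFD-UNX (SD, n = 4 each). The number of arrays limits the precision. In a principal component analysis of the 8 arrays, the first component carried 40.8% of the variance and placed HFD-UNX 1 and 2 at 47.9 and 57.7, HFD-UNX 3 and 4 at 2.69 and 14.9, and the LFD-UNX arrays between -36.2 and -21.3. The median SD over genes was 0.301 in HFD-UNX and 0.142 in LFD-UNX.

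Of 16032 genes tested, 2275 (14.2%) passed an adjusted p of 0.05 (limma, Benjamini-Hochberg), 1231 (7.68%) higher and 1044 (6.51%) lower in HFD-UNX. These shares are the background for the counts of list members given below. The median difference of all tested genes was -0.01. The 4 HFD-UNX values lay wholly above or wholly below the 4 LFD-UNX values for 3602 genes (22.5%). Among genes that passed, the median size of the difference was 0.73, and 456 genes were at least 2-fold higher and 104 at least 2-fold lower in HFD-UNX. All 2275 had the same sign when the LFD-UNX arrays were set against each HFD-UNX slide alone, with a median size of 0.815 on slide 1 and 0.638 on slide 2, a description that the test itself used. With the slide as a random block, 26 genes passed, and of the genes named by the rule for this text 6 did: Car3, Gsx2, Speer4d, Bhlha9, Arhgap26 and Blcap. The adjusted p-values below therefore belong to the fit without that block. Leaving out each of the 8 arrays in turn kept 1040 of the 2275 calls in every case, and 56 of the 123 calls among the named genes. With LFD-UNX 3 and 4 both left out, 33 of these 123 calls remained, and with normexp 24. Results of these 2 settings are printed below for some genes only. Fewer cells of a type and less RNA per cell cannot be told apart in whole-kidney RNA.

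**Figure D1:**
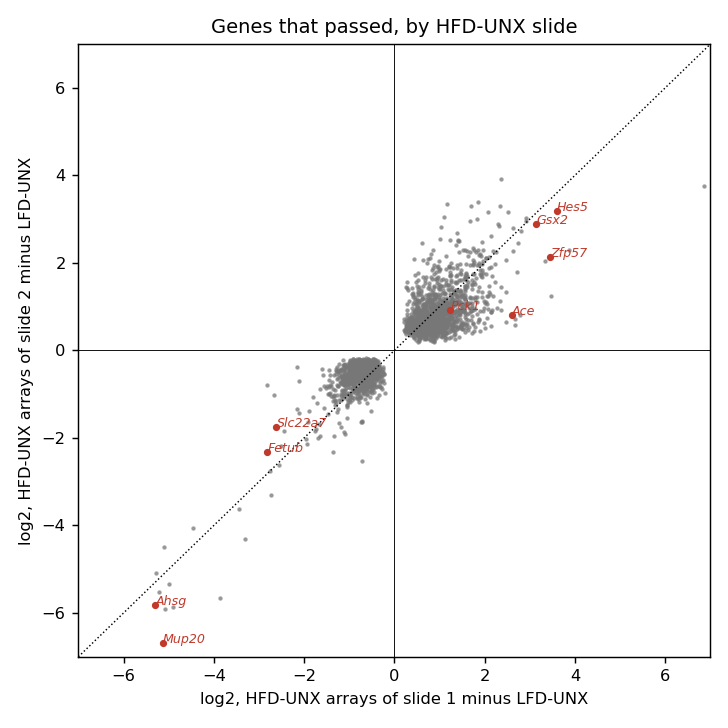
Each point is a gene that passed, with the difference between the HFD-UNX arrays of slide 1 and the 4 LFD-UNX arrays on the x axis and that of slide 2 on the y axis (both log2). Points lie in the upper right or lower left only, and the median size was 0.815 on slide 1 and 0.638 on slide 2; Ace, at 2.59 on slide 1 and 0.80 on slide 2, lies well below the diagonal.

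The direction of the calls went with signal level. Among the genes of lowest mean signal, from -8.17 to -3.27, 552 passed as higher and 123 as lower in HFD-UNX, whereas among those of highest signal, from 1.46 to 8.45, 157 passed as higher and 388 as lower. The intermediate bands held 326 higher and 202 lower genes (-3.27 to -0.698), and 196 higher and 331 lower genes (-0.696 to 1.46). The median difference moved the same way, from 0.161 in the dimmest to -0.0967 in the brightest band. Whether the lower negative-control signal on the HFD-UNX arrays plays a part in this was not tested. Of the 13758 genes well above background on all 8 arrays, 835 passed as higher and 993 as lower. The shares of all genes, used below as the background for the lists, take no account of signal level.

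**Figure D2:**
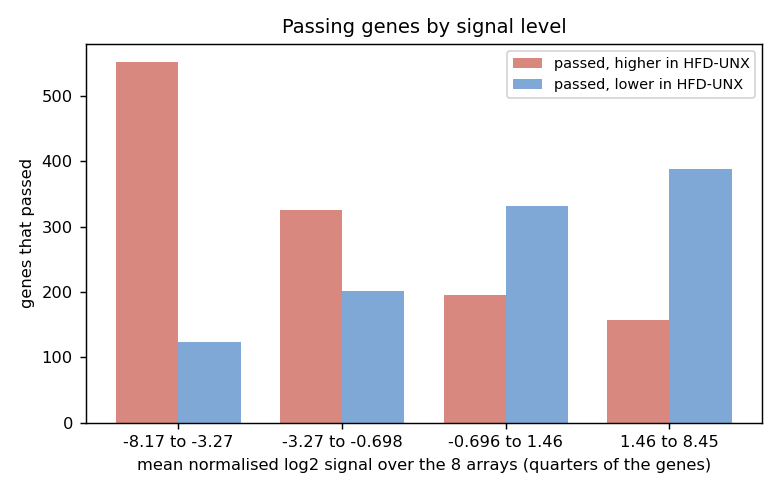
Bars count the genes that passed as higher (red) or lower (blue) in HFD-UNX within 4 bands of mean normalised log2 signal over the 8 arrays, each of about 4008 genes. Higher calls prevail in the dimmest band (552 against 123) and lower calls in the brightest (157 higher, 388 lower).

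Pck1, which encodes the rate-limiting cytosolic enzyme of gluconeogenesis, measured 7.83, 7.93, 7.80 and 7.34 on HFD-UNX arrays 1 to 4, against 6.69, 6.52, 6.71 and 6.63 on LFD-UNX arrays 1 to 4. Every HFD-UNX value exceeded every LFD-UNX value, and the gene was 2.13-fold higher (log2 1.09 ± 0.17 SE, adjusted p = 0.00158). Slc5a1, the high-affinity sodium-glucose cotransporter SGLT1 of the late proximal tubule, measured -0.57, 0.19, -0.81 and -0.60 in HFD-UNX and -1.32, -1.85, -1.62 and -1.66 in LFD-UNX, which was 2.24-fold higher (adjusted p = 0.00605, and 0.0641 with normexp). Both kept their call without each array in turn. They were the 2 members that passed of 16 measured in the gluconeogenesis and glucose transport list, whose median difference was 0.154. Slc5a2, the low-affinity cotransporter SGLT2, had a difference of -0.35, G6pc, the terminal enzyme of glucose release, 0.04, and Fbp1, fructose bisphosphatase, 0.16, none of which passed. In the list of ammonia production, which shares Pck1, Glud1 (glutamate dehydrogenase) rose as well, 1.37-fold (adjusted p = 0.0237), a call lost without 3 of the 8 arrays taken singly; the ammonia list had 2 of 11 higher and a median of 0.148.

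Angptl4, a secreted inhibitor of lipoprotein lipase induced by fatty acids through PPAR nuclear receptors, measured 4.16, 3.95, 4.17 and 4.09 in HFD-UNX, against 5.38, 4.61, 4.88 and 5.56 in LFD-UNX, and fell 2.03-fold (adjusted p = 0.014). Lpl itself, the lipase that frees fatty acids from lipoproteins, measured 2.67, 2.95, 3.31 and 3.30 in HFD-UNX, against 4.99, 4.15, 4.97 and 4.66 in LFD-UNX (3.11-fold lower, adjusted p = 0.00896), and a second Lpl probe went the same way, by -1.46. Acacb, the mitochondrial acetyl-CoA carboxylase whose product holds back fatty acid entry into mitochondria, measured -0.16, 0.01, 0.51 and -0.26 in HFD-UNX and 1.26, 1.04, 0.87 and 0.90 in LFD-UNX (1.99-fold lower, adjusted p = 0.00407). The groups did not overlap for any of these 3 genes, and all 3 calls held without each array in turn. With LFD-UNX 3 and 4 both left out, Acacb passed (adjusted p = 0.0306), but Angptl4 (0.111) and Lpl (0.0962) did not. Nr1h2, the sterol-sensing receptor LXR-beta, was also lower, at 3.13 ± 0.13 in HFD-UNX and 3.75 ± 0.05 in LFD-UNX (SD, n = 4 each, adjusted p = 0.0019).

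Of 32 fatty acid oxidation and PPAR-alpha target genes, none rose and 2 fell, Angptl4 and Acaa1a (peroxisomal thiolase; -0.37, adjusted p = 0.0372, lost without 6 of the 8 arrays singly), with a list median of -0.131. Cpt1a, the carnitine palmitoyltransferase that gates mitochondrial import, had a difference of 0.09 without passing. In cholesterol synthesis, 2 of 25 genes rose and none fell (median 0.0787), among them Dhcr7, the last reductase of the pathway, by 1.26 (adjusted p = 0.0158). Dhcr7 lost its call without HFD-UNX 2. In fatty acid and triglyceride synthesis 1 of 20 fell, Acacb, and Fasn (0.40) and Scd1 (0.47) did not pass. Among 24 uptake, efflux and droplet genes, Slc27a4, a fatty acid transport protein, rose by 0.95 (adjusted p = 0.0441, lost without 7 of the 8 arrays singly), and Lpl and Nr1h2 fell. Cd36, the fatty acid translocase, had a difference of -0.44 and Plin2, the lipid droplet coat protein, 0.47, and neither passed.

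Adipocyte markers gave a divided picture. Car3, a carbonic anhydrase abundant in adipocytes, measured 0.86, 1.13 and 1.14 on HFD-UNX 1, 3 and 4 (its spot on HFD-UNX 2 carried an outlier mark and was dropped from the fit), against 2.95, 2.67, 2.76 and 2.73 in LFD-UNX. It was 3.33-fold lower (log2 -1.73 ± 0.14 SE, adjusted p = 4.56e-05; adjusted p = 0.0144 with the slide as a random block). Of 19 adipocyte markers, Car3 and Lpl fell, while Sncg (gamma-synuclein) rose by 1.08 (adjusted p = 0.00987) and Lep, the adipose hormone leptin, passed as higher (adjusted p = 0.0392). Lep was well above background on HFD-UNX 2, 3 and 4 and not on HFD-UNX 1, at -7.04, -2.98, -4.64 and -4.18 on arrays 1 to 4, and on no LFD-UNX array, at -7.16, -6.49, -7.94 and -7.60, so its fold is a bound of at least 1.94. Such a bound, the mean of the brighter diet over the detection floor of the dimmer, is given wherever 1 diet has no array with the gene detected. HFD-UNX 1 lay among the LFD-UNX values, and the Lep call was lost without 6 of the 8 arrays singly. The adipocyte genes Adipoq, Plin1 and Fabp4 had differences of 0.36, 0.15 and 0.15 and did not pass; the list median was 0.146.

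Insulin, adiponectin and AMPK signalling had 2 of 23 members higher and 2 lower, with a median of 0.217. Prkag1, a regulatory gamma subunit of AMPK, measured 2.00, 2.07, 1.83 and 2.13 in HFD-UNX and 1.11, 1.17, 1.15 and 1.28 in LFD-UNX, which was 1.78-fold higher (adjusted p = 0.00143) and held without each array in turn. Mtor (0.56) rose, and Adipor2 (-0.38), an adiponectin receptor, and Gsk3b (-0.51), a kinase inhibited by insulin signalling, fell, with calls lost without 5 to 7 of the 8 arrays singly.

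**Figure D3:**
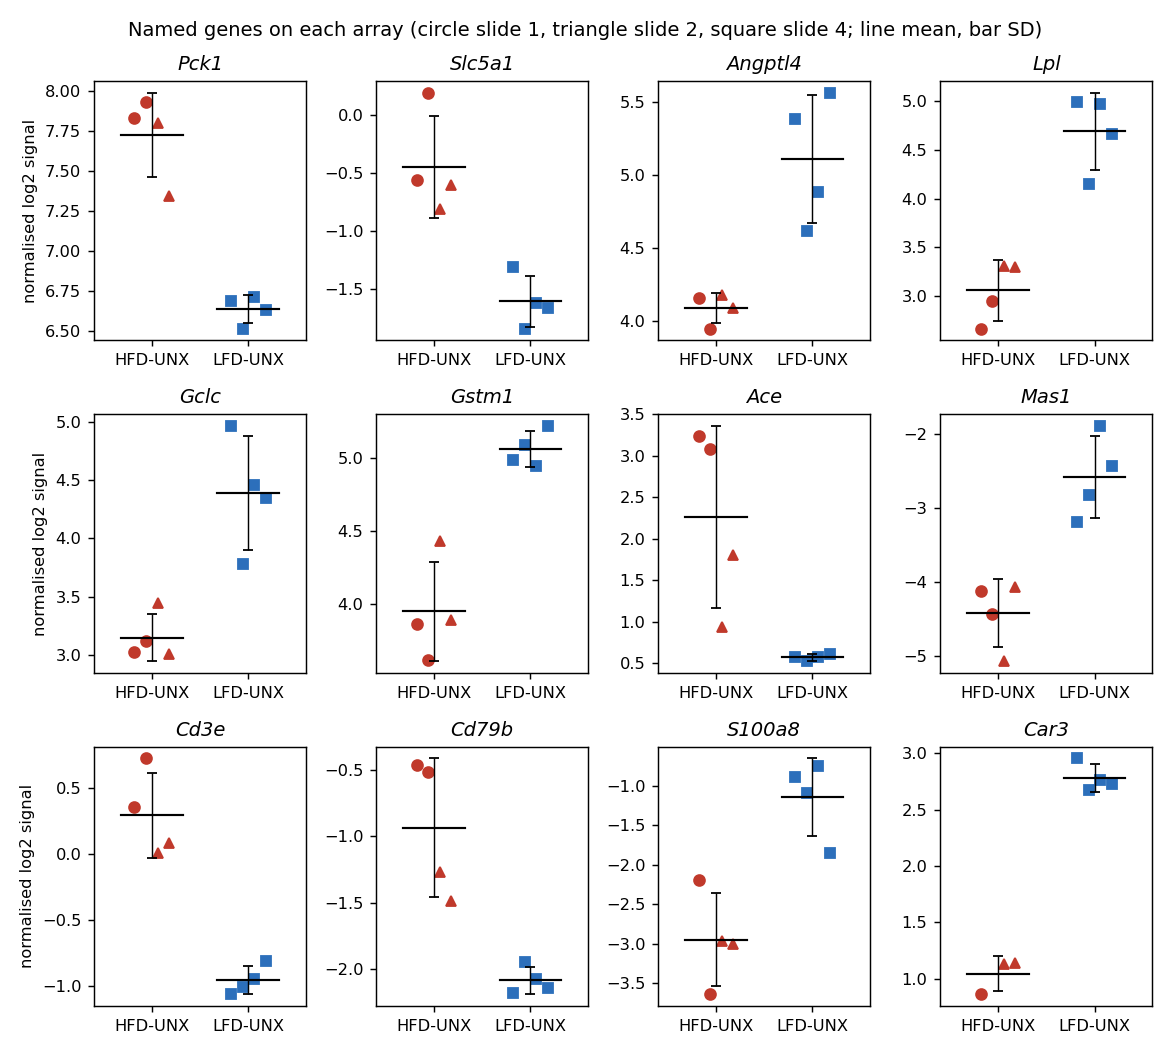
Normalised log2 signal of 12 genes on each array, HFD-UNX left (red; circles slide 1, triangles slide 2) and LFD-UNX right (blue squares, slide 4), with the mean as a line and the SD as a bar; each panel has its own y axis. The groups do not overlap in any panel, and Ace is split by slide within HFD-UNX, at 3.24 and 3.08 on slide 1 against 0.93 and 1.80 on slide 2.

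Gclc, the catalytic subunit of the rate-limiting enzyme of glutathione synthesis, measured 3.02, 3.12, 3.44 and 3.01 in HFD-UNX and 4.97, 3.78, 4.46 and 4.34 in LFD-UNX, a 2.36-fold fall (adjusted p = 0.00636) that held without each array in turn. Gstm1, a glutathione transferase, was 2.16-fold lower by its brightest probe, at 3.95 ± 0.34 in HFD-UNX and 5.06 ± 0.12 in LFD-UNX (SD, n = 4 each, adjusted p = 0.000792), but a second probe of nearly the same brightness went the other way by 0.61, and the Gstm genes are close copies of each other, so the direction for Gstm1 is uncertain. Gsta3 fell by 0.75 (adjusted p = 0.023) and Gstm3 rose by 0.86 (adjusted p = 0.0197), the last again with a second, much dimmer probe in the opposite direction; these calls were lost without 5 and 4 of the 8 arrays singly. In all, 1 of 28 NRF2 and glutathione genes rose and 3 fell, with a median of -0.107. Nfe2l2, which encodes NRF2, was at -0.43, and its targets Nqo1 and Hmox1 at -0.05 and -0.51, none past the threshold.

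In the amino acid and ER stress list, 3 of 24 fell and 1 rose. Ern1, the ER stress sensor IRE1-alpha, measured -2.08, -2.25, -1.60 and -2.45 in HFD-UNX and -1.002, -1.18, -1.13 and -0.92 in LFD-UNX (2.05-fold lower, adjusted p = 0.00164), and held without each array in turn. Asns, asparagine synthetase, fell by 0.79 on the log2 scale and Atf5, a stress transcription factor, by 0.50, while Shmt2, of mitochondrial one-carbon metabolism, rose by 0.59; their calls were lost without 5, 3 and 6 of the 8 arrays singly. The chaperone Hspa5 (-0.01), Atf4 (-0.06) and Ddit3 (0.36) did not pass. Of 19 heat shock and chaperone genes none rose and 3 fell, against 6.51% lower among all genes, and the list median was -0.256. The 3 were Hsf1 (the heat shock transcription factor, -0.36), Hsp90ab1 (-0.67) and Bag3 (-0.42), all with calls lost without at least 5 of the 8 arrays singly. None of the 19 passed with normexp or with LFD-UNX 3 and 4 both left out.

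Mas1, the receptor for angiotensin 1-7, measured -4.12, -4.42, -5.07 and -4.07 in HFD-UNX and -3.18, -2.83, -1.88 and -2.43 in LFD-UNX, a 3.58-fold fall (adjusted p = 0.00316, and 0.213 with normexp) that its second probe shared (-1.01). Ace, the converting enzyme that makes angiotensin II, was 3.24-fold higher (adjusted p = 0.0257), at 3.24, 3.08, 0.93 and 1.80 in HFD-UNX and 0.57, 0.52, 0.57 and 0.61 in LFD-UNX. The difference was 2.59 on slide 1 and 0.80 on slide 2, and the call was lost without 6 of the 8 arrays singly. Nr3c2, the mineralocorticoid receptor, fell by 0.86 on the log2 scale (adjusted p = 0.0279) with 1 LFD-UNX array, at -3.80, inside the HFD-UNX range of -4.71 to -3.70, and Nr3c1, the glucocorticoid receptor, fell by 0.41 (adjusted p = 0.0463); both calls were lost without 5 or more of the 8 arrays singly. Ren1 (renin) and Agtr1a, the angiotensin II receptor, had differences of 0.05 and -0.13. Of 15 measured genes of the renin-angiotensin and mineralocorticoid system, 1 rose and 3 fell.

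Along the nephron, the proximal tubule list had 1 of 30 members higher and 2 lower, with a median of -0.0466. Slc34a3, the sodium-phosphate cotransporter NaPi-IIc, measured 2.54, 2.46, 3.15 and 3.40 in HFD-UNX and 3.90, 3.60, 4.14 and 4.12 in LFD-UNX, a 2.08-fold fall (adjusted p = 0.00783) that held without each array in turn. Slc22a7, the organic anion transporter OAT2, measured 2.25, 1.505, 3.48 and 2.02 in HFD-UNX and 5.27, 3.48, 4.44 and 4.76 in LFD-UNX (4.52-fold lower, adjusted p = 0.0367), with HFD-UNX 3 and LFD-UNX 2 both at 3.48 and a call lost without 6 of the 8 arrays singly. Slc13a3, a dicarboxylate carrier, rose by 0.60 (adjusted p = 0.0249, lost without 4 of the 8 arrays singly). Slc34a1, the main phosphate cotransporter NaPi-IIa, was at -0.17 and Lrp2, the endocytic receptor megalin, at 0.03, and neither passed. Among 21 calcium, phosphate and vitamin D genes, Slc34a3 was the only one lower and Atp2b4, a plasma membrane calcium pump, the only one higher (0.68, adjusted p = 0.0172, lost without LFD-UNX 1). Of its 2 further, dimmer probes 1 was at 0.37 and the other at -0.50.

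In the distal segments, Pvalb, the calcium-binding parvalbumin of the distal convoluted tubule, measured 3.13, 3.07, 3.61 and 3.64 in HFD-UNX and 1.77, 2.47, 2.21 and 2.56 in LFD-UNX, a 2.16-fold rise (adjusted p = 0.00782) with a second probe at 1.29. Pvalb is also a skeletal muscle gene. None of the other 8 measured muscle markers passed, and Acta1, skeletal actin, was at 0.00, though only 5 of the 9 measured muscle genes were well above background on all 8 arrays. The part that muscle RNA may have in the Pvalb rise was not tested. The salt transporters Slc12a3 (NCC) and Slc12a1 (NKCC2) had differences of 0.22 and -0.32 and did not pass, so that Pvalb was the only one of 15 loop and distal tubule genes to do so. In the collecting duct, 2 of 14 principal cell genes fell, against 6.51% lower among all genes. They were Scnn1a (the alpha subunit of the epithelial sodium channel ENaC), at 2.81 ± 0.14 in HFD-UNX and 3.35 ± 0.12 in LFD-UNX (SD, n = 4 each, adjusted p = 0.0121), and Tmem229a (-0.51, lost without 6 of the 8 arrays singly). Neither Scnn1a nor Tmem229a passed with normexp or with LFD-UNX 3 and 4 both left out. Scnn1b (0.39) and Scnn1g (1.18), the other ENaC subunits, did not pass, and Aqp2, the vasopressin-regulated water channel, was at -0.05.

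The list of intercalated cell and acid secretion genes had 4 of 15 members lower and 1 higher, with a median of -0.329, against 6.51% lower and 7.68% higher among all genes. Foxi1, the transcription factor that specifies intercalated cells, measured 1.23, 1.01, 1.92 and 1.41 in HFD-UNX and 2.28, 1.99, 1.94 and 2.22 in LFD-UNX (1.64-fold lower, adjusted p = 0.0201). Atp6v0d2 and Atp6v1c2, subunits of the proton pump, fell by 0.50 and 0.38 on the log2 scale (adjusted p = 0.0152 and 0.0277), and Slc26a4, the chloride-bicarbonate exchanger pendrin, by 0.57 (adjusted p = 0.0381). Car2, carbonic anhydrase 2, rose by 0.52 (adjusted p = 0.0446). Atp6v0d2 kept its call without each array in turn, whereas Foxi1, Atp6v1c2, Slc26a4 and Car2 lost theirs without 4 to 7 of the 8 arrays singly. None of the 15 genes, Atp6v0d2 included, passed with normexp or with LFD-UNX 3 and 4 both left out. The pump subunits Atp6v1b1 and Atp6v0a4, at 0.07 and 0.17, and the anion exchanger Slc4a1, at -0.33, did not pass.

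The major urinary proteins are small pheromone carriers that male mice secrete from the liver and excrete in urine. Mup18 measured -3.80, -4.56, -5.28 and -4.72 in HFD-UNX, against -1.51, -2.49, 3.04 and 4.57 in LFD-UNX. Its neighbours in the Mup cluster did the same: Mup4 measured -4.71, -5.37, -5.57 and -5.22 in HFD-UNX and -2.43, -3.59, 2.08 and 3.72 in LFD-UNX. LFD-UNX 3 and 4 stood several units above LFD-UNX 1 and 2, and both exceeded every HFD-UNX array. Fitted differences were -5.49 ± 1.37 (SE) for Mup18 (adjusted p = 0.0181) and -5.16 ± 1.36 for Mup4 (adjusted p = 0.0232), and 7 of 9 measured members passed as lower, with a list median of -5.18. Without LFD-UNX 3 and 4 none of the 9 passed, and Mup18 had an adjusted p of 0.197. Without either of those arrays alone, Mup4, Mup17, Mup18, Mup19 and Mup20 also lost their calls.

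The 250 bases upstream of the start sites are shown for the 4 Mup genes that passed and were well above background on all 8 arrays, since they fell in parallel and lie in the same cluster (RefSeq, GRCm38.p6, each on the minus strand, 5′ to 3′). Capitals mark the TATA motif TATATAA. 
Mup4 at chr4:59960668-59960917: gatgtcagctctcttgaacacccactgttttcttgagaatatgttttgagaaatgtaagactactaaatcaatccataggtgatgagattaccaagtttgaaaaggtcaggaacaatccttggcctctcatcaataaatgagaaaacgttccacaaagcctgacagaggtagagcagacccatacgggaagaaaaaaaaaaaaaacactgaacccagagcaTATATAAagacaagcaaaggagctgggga
Mup17 at chr4:61595833-61596082: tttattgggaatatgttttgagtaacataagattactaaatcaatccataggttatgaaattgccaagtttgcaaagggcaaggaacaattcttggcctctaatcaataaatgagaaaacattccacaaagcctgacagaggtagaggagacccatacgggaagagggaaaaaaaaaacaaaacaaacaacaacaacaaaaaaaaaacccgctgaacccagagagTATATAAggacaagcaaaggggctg
Mup18 at chr4:61674095-61674344: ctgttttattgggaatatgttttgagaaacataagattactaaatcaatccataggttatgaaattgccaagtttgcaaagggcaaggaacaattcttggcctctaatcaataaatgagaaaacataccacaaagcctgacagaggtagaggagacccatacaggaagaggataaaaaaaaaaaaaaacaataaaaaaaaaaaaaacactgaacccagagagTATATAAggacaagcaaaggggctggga
Mup19 at chr4:61782225-61782474: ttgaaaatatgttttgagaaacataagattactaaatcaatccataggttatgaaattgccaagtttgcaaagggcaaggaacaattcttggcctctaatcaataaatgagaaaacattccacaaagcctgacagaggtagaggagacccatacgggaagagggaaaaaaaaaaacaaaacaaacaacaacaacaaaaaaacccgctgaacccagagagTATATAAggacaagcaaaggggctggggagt

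The aligned upstream sequences were 91.1% to 98.8% identical, with Mup17 and Mup19 the closest pair, and the motif began 25 to 31 bases before the start site in each. TATATAA was searched on both strands and occurred in the same window of 3.04% of 32851 RefSeq promoters. The Mup family is known for close copies, and no probe or transcript sequences were compared here, so the members were not counted as separate findings. A match to these letters describes the sequence and not a site of binding.

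Liver secretory genes outside the cluster shared the split of the LFD-UNX arrays in part. Ahsg (fetuin A), well above background on 1 of 4 HFD-UNX arrays, was at -6.16, -6.94, -6.65 and -7.49 in HFD-UNX, against -3.32, -4.52, 1.29 and 1.54 in LFD-UNX (adjusted p = 0.0138, and 0.172 without LFD-UNX 3 and 4). Fetub (fetuin B) did not share it, at -3.82, -3.88, -2.93 and -3.80 in HFD-UNX, against -0.82, -1.29, -1.20 and -0.83 in LFD-UNX (5.95-fold lower, adjusted p = 0.000404, and 0.00901 without LFD-UNX 3 and 4). Ttr, transthyretin, which carries thyroxine and retinol-binding protein, went the other way, at 4.31, 4.45, 4.33 and 4.70 in HFD-UNX and 2.81, 2.85, 3.02 and 2.97 in LFD-UNX (2.89-fold higher, adjusted p = 0.0012). In all, 2 of 31 abundant liver genes passed as higher and 7 as lower (median -0.562), which became 1 and 1 without LFD-UNX 3 and 4 (median -0.168). Alb, albumin, had a difference of -0.49, Apoa1 -3.08 and Serpina1a -0.56, none past the threshold.

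LFD-UNX 3 and 4 both exceeded LFD-UNX 1 and 2 for 9 of 9 Mup genes and 23 of 31 liver genes, compared with 3408 of all 16032 genes. The mean Mup level was -5.07, -5.45, -6.11 and -5.88 on HFD-UNX 1 to 4, and -3.28, -4.34, 1.06 and 2.38 on LFD-UNX 1 to 4. For the liver list the means were -1.77, -1.53, -1.66 and -1.56 in HFD-UNX and -1.03, -1.64, 0.06 and 0.47 in LFD-UNX. The part that liver RNA in the samples may have in these differences was not tested.

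**Figure D4:**
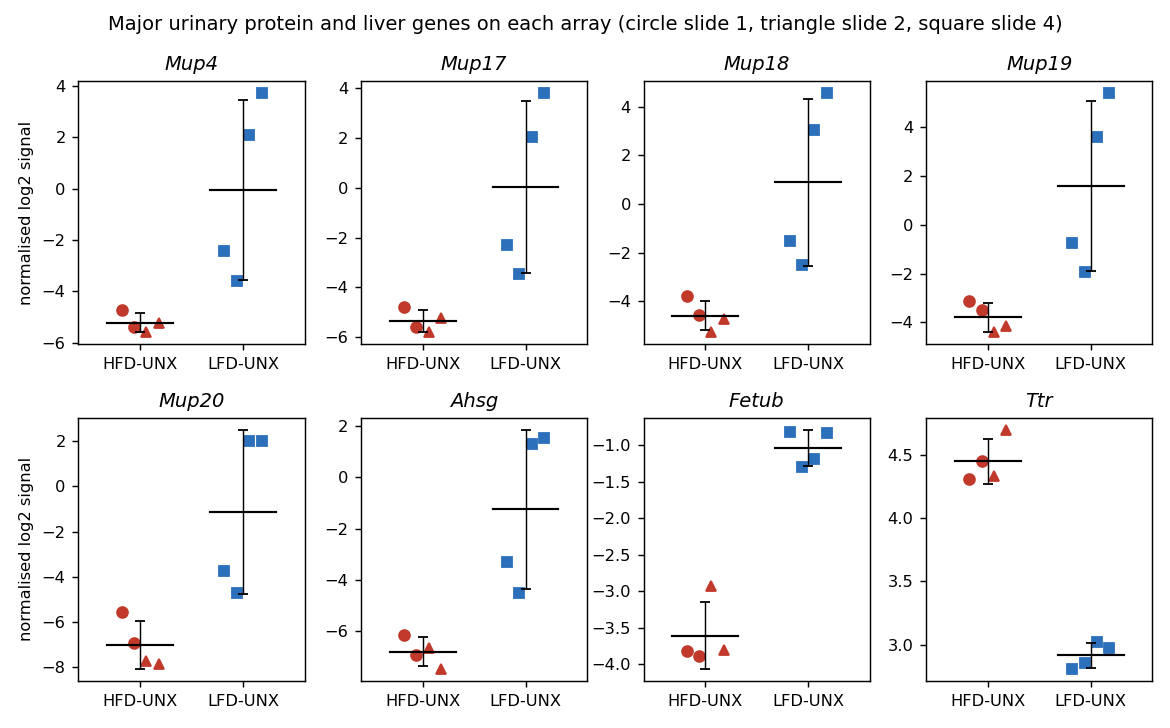
Normalised log2 signal of 5 Mup genes and 3 other liver genes on each array, HFD-UNX left (red; circles slide 1, triangles slide 2) and LFD-UNX right (blue squares), with mean and SD. For the Mup genes and Ahsg, 2 of the 4 LFD-UNX points lie far above the rest, whereas the Fetub and Ttr points of each diet lie close together.

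T-cell and NK-cell genes were higher: 7 of 23 rose and none fell, with a median of 0.357, against 7.68% higher among all genes. The list was dim, with 14 of its 23 genes well above background on all 8 arrays. In the band of lowest mean signal, 552 of 4008 genes passed as higher, with a median of 0.161. The part that signal level may have in the count of this list was not tested. Prf1, the pore-forming protein of cytotoxic cells, measured -2.05, -2.11, -2.05 and -2.05 in HFD-UNX and -3.34, -3.37, -2.98 and -3.05 in LFD-UNX (2.17-fold higher, adjusted p = 0.000733, 0.006 without LFD-UNX 3 and 4, but 0.33 with normexp). Cd3e, a subunit of the T-cell receptor complex, measured 0.35, 0.72, 0.00 and 0.08 in HFD-UNX and -1.06, -1.01, -0.95 and -0.81 in LFD-UNX (2.38-fold higher, adjusted p = 0.00557). Ccr7, a lymph node homing receptor, rose by 1.08 (adjusted p = 0.0116). Cd27, a costimulatory receptor, was well above background on 4 HFD-UNX arrays and on no LFD-UNX array, which gives a rise of at least 1.48-fold (adjusted p = 0.00878). Cd4 (0.68), Il7r (1.07) and Cd28 (0.75) also passed, with calls lost without 1, 5 and 6 of the 8 arrays singly. Other defining genes had small differences without passing, among them Cd3d (0.29), Cd8a (0.36), Cd247 (0.11) and Lck (0.02), and the mean level of the list overlapped between diets, lying between -3.41 and -2.84 in HFD-UNX and between -4.10 and -3.37 in LFD-UNX.

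B-cell markers had 6 of 14 higher and 1 lower, with a median of 0.622, against 7.68% higher and 6.51% lower among all genes. Here 9 of the 14 genes were well above background on all 8 arrays. The part that signal level may have in this count was not tested either. Cd79b, a signalling subunit of the B-cell receptor, measured -0.46, -0.52, -1.27 and -1.49 in HFD-UNX and -2.18, -1.95, -2.07 and -2.14 in LFD-UNX, a 2.22-fold rise (adjusted p = 0.00742) of 1.59 on slide 1 and 0.71 on slide 2. Cd22, an inhibitory lectin receptor, rose by 1.06 (adjusted p = 0.0116) and Cd37, a tetraspanin of B cells, by 1.05 (adjusted p = 0.0164), and Fcmr, Ms4a1 and Pou2af1 by 0.69, 1.54 and 0.83, of which Cd37 lost its call without LFD-UNX 1 and the last 3 theirs without 6 or 7 of the 8 arrays singly. Cr2, the complement receptor of mature B cells, fell by 0.45 on the log2 scale (adjusted p = 0.0296, lost without 6 of the 8 arrays singly). Pax5, which defines the lineage, was at -0.66 and did not pass. Prf1, Cd3e, Ccr7, Cd27, Cd79b and Cd22 kept their calls without each array in turn, but with LFD-UNX 3 and 4 both left out 2 of 23 T-cell and NK-cell genes and none of 14 B-cell genes passed. With another background correction (normexp) the counts were 1 (Cd3e, adjusted p = 0.0234) and 0.

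Of 13 neutrophil genes 3 fell and none rose, against 6.51% lower among all genes. S100a8 and S100a9, which together form calprotectin, the main cytosolic protein of neutrophils, fell by 1.80 and 1.77 on the log2 scale (adjusted p = 0.00279 and 0.00379). S100a8 measured -2.19, -3.64, -2.96 and -3.00 in HFD-UNX and -0.89, -1.09, -0.75 and -1.86 in LFD-UNX, and S100a9 -0.14, -1.65, -0.76 and -1.12 in HFD-UNX and 1.09, 0.95, 1.32 and 0.06 in LFD-UNX. The groups of both genes were apart, and the pair kept their calls without each array in turn and without LFD-UNX 3 and 4 together (adjusted p = 0.0161 and 0.0172). Csf3r, the granulocyte colony-stimulating factor receptor, fell by 0.56 (adjusted p = 0.027, lost without 7 of the 8 arrays singly). The remaining 10 markers did not pass, among them Mpo (-0.10), Elane (0.59) and Camp (-0.34), and the median was -0.503. Of 23 macrophage and antigen-presenting cell genes only Lyz1 passed (0.66, adjusted p = 0.026, lost without 5 of the 8 arrays singly); Adgre1, the macrophage marker F4/80, was at 0.18 and Cd74, the invariant chain, at 0.73.

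Cytokines and complement changed in few members. Of 34 chemokine, cytokine and inflammasome genes 2 rose, Tnf (1.02, adjusted p = 0.0272; well above background on 4 HFD-UNX arrays and 1 LFD-UNX array) and Il15 (0.63, adjusted p = 0.0378), calls lost without 5 and 6 of the 8 arrays singly. Neither Tnf nor Il15 passed with normexp. Ccl2 (-0.09) and Il6 (-0.74) did not pass. Of 22 complement genes 2 fell. C4b measured 0.57, 0.20, 0.89 and 0.81 in HFD-UNX and 1.18, 1.603, 1.83 and 1.52 in LFD-UNX (1.88-fold lower, adjusted p = 0.0118). C4bp, the C4 inhibitor made in liver, was well above background on no HFD-UNX and 2 LFD-UNX arrays, at least 3.67-fold lower (adjusted p = 0.0113), and its 2 highest values, -4.10 and -2.63, were again those of LFD-UNX 3 and 4. C3 was at -0.50. None of 24 interferon-stimulated genes passed, with Ifit1 at 0.58 and Isg15 at 0.10.

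**Figure D5:**
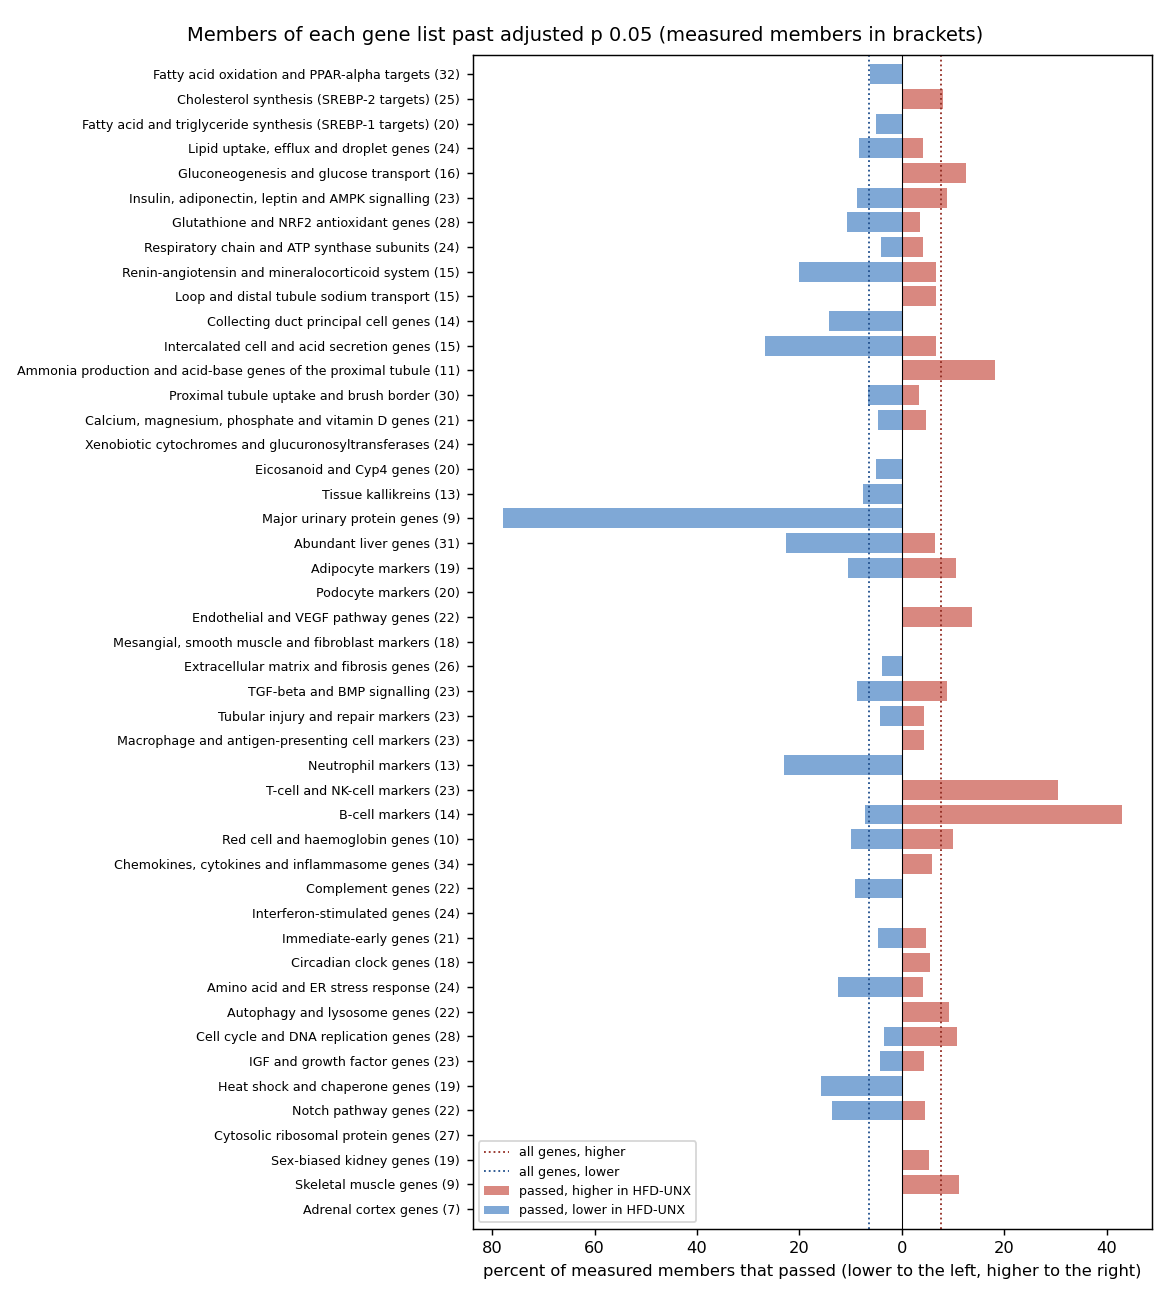
For each of the 47 gene lists, the bar to the right gives the percent of its measured members that passed as higher in HFD-UNX and the bar to the left the percent that passed as lower, with the shares of all tested genes (7.68% and 6.51%) dotted. The Mup list extends farthest to the left (7 of 9) and the B-cell (6 of 14) and T-cell and NK-cell lists (7 of 23) farthest to the right.

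Hes5, a transcriptional repressor induced by Notch in other tissues, measured -3.13, -3.30, -3.37 and -3.89 in HFD-UNX and was not well above background on any LFD-UNX array, at -7.29, -6.80, -7.32 and -5.83, which makes it at least 4.74-fold higher (adjusted p = 0.000582). Hes5 was the only one of 22 Notch pathway genes to rise. Rfng, a fringe glycosyltransferase that modifies Notch receptors, fell by 0.67 on the log2 scale (adjusted p = 0.00381, a dimmer probe going the other way by 0.23), and Heyl, a Notch target, by 0.64 and Maml1, a coactivator of Notch, by 0.36, the last pair losing their calls without 3 and 7 of the 8 arrays singly. The more usual kidney targets Hes1 and Hey1 had differences of 0.64 and 0.14 and did not pass.

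Of 23 TGF-beta and BMP genes, 2 rose and 2 fell. Id1, a direct BMP target, measured 2.39, 2.57, 3.30 and 3.04 in HFD-UNX and 1.41, 2.08, 0.37 and 1.19 in LFD-UNX (2.96-fold higher, adjusted p = 0.0147) and held without each array in turn. It did not pass with normexp (adjusted p = 0.0576). The ligand Bmp4 rose by 0.47 and the ligand Bmp7 fell by 0.44 on the log2 scale (adjusted p = 0.037 and 0.0258), the receptor Bmpr2 fell by 0.73 (adjusted p = 0.0462), and Tgfb1 (1.06) did not pass; the 3 smaller calls were lost without 5 or 6 of the 8 arrays singly. Extracellular matrix had 1 of 26 genes lower, the collagen cross-linking oxidase Lox, well above background on no HFD-UNX and 2 LFD-UNX arrays (at least 1.93-fold lower, adjusted p = 0.0327, lost without 6 of the 8 arrays singly), and Col1a1, Col3a1 and Fn1 were at -0.30, 0.08 and -0.38. Among 23 injury and repair markers, Cd44, a hyaluronan receptor of injured tubules, rose 1.80-fold, at -2.30 ± 0.24 in HFD-UNX and -3.15 ± 0.16 in LFD-UNX (SD, n = 4 each, adjusted p = 0.00366, and 0.572 with normexp). Clu, clusterin, fell 1.69-fold (adjusted p = 0.0203, lost without 4 of the 8 arrays singly). Havcr1 (KIM-1) and Lcn2 (NGAL), the common injury markers, were at 0.60 and 0.36 and did not pass.

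In the cell cycle list 3 of 28 rose and 1 fell. Mcm2, of the replicative helicase, measured -1.01, -1.12, -0.81 and -0.81 in HFD-UNX and -1.59, -1.57, -1.59 and -1.61 in LFD-UNX (1.57-fold higher, adjusted p = 0.00274), and Tyms, thymidylate synthase, rose 1.73-fold (adjusted p = 0.00636); both held without each array in turn. Top2a, a proliferation marker, rose by 0.89 (adjusted p = 0.0422), with 1 of 4 LFD-UNX arrays well above background. Mcm6, of the same helicase as Mcm2, fell by 0.56 on the log2 scale (adjusted p = 0.043), and these 2 calls were lost without 4 and 7 of the 8 arrays singly. Mki67 and Pcna were at 0.09 and -0.02 and did not pass. Endothelial genes had 3 of 22 higher, against 7.68% among all genes, and none lower. The 3 were Cdh5 (VE-cadherin, 0.51), Tie1 (1.17) and Flt4 (1.63). All 3 calls were lost without 5 or 6 of the 8 arrays singly, and Pecam1 (0.48) and Kdr (-0.10) did not pass. None of the 22 passed with normexp or with LFD-UNX 3 and 4 both left out. Growth factors had Tgfa higher (0.63, adjusted p = 0.0226) and Igf1 lower (-0.50, adjusted p = 0.032) of 23, lost without 4 and 5 of the 8 arrays singly. The mRNA-destabilising protein gene Zfp36 rose by 1.94 (adjusted p = 0.00863, and 0.624 with normexp), with 4 HFD-UNX and 2 LFD-UNX arrays well above background. Ccn1, a matricellular immediate-early gene, fell by 1.30 (adjusted p = 0.0245, lost without 3 of the 8 arrays singly).

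Other lists stayed near or under the background share. Respiratory chain genes had Uqcrc1 higher (0.65) and Sdhc lower (-0.38) of 24, autophagy and lysosome genes Map1lc3a (0.72) and Npc2 (0.58) higher of 22, clock genes Per1 higher (0.81) of 18, eicosanoid genes Cyp4f14 lower (-0.69) of 20, and sex-biased kidney genes Slc7a12 higher (1.81) of 19, all with calls lost without 4 to 6 of the 8 arrays singly. A second Sdhc probe of similar brightness went the other way, at 0.17. Of 10 red cell genes, Hbb-bt was lower (-0.56, lost without 4 of the 8 arrays singly). Klk1b16 was the only one of 13 tissue kallikreins past the threshold (-1.27, adjusted p = 0.03, lost without 5 of the 8 arrays singly). The kallikrein median was -0.968 for the HFD-UNX arrays of slide 1 and 0.208 for those of slide 2. No member passed among 20 podocyte genes, 18 mesangial and smooth muscle genes, 24 xenobiotic genes, 27 ribosomal protein genes and 7 adrenal cortex genes. In those lists Cyp2b10 was at -2.24 (adjusted p = 0.0526) with no overlap between the groups, Rps19 at 0.47 and Cyp21a1, the adrenal 21-hydroxylase, at 0.39.

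Among genes well above background on all 8 arrays whose groups did not overlap, 781 passed as higher and 917 as lower. The highest of them was Zfp57, a zinc finger protein that maintains imprints, at 2.28, 2.33, 0.19 and 1.78 in HFD-UNX and -1.50, -1.44, -0.77 and -0.84 in LFD-UNX (6.89-fold, adjusted p = 0.00303), though a second, far dimmer probe was at 0.03. Bhlha9 followed in HFD-UNX at -2.45, -2.60, -2.25 and -1.83, against -4.84, -4.86, -4.41 and -4.52 in LFD-UNX (5.18-fold, adjusted p = 7.63e-05, 0.0271 with the slide as a random block and 0.162 with normexp). Ppp1r3b, a subunit that directs protein phosphatase 1 to glycogen, measured 3.26, 3.50, 5.02 and 4.34 in HFD-UNX and 1.88, 1.92, 2.01 and 2.16 in LFD-UNX (4.10-fold, adjusted p = 0.00158). Fmnl1, Bmp1, Vax2, Zfp36l3, Arhgap26, Blcap, E2f4, Anp32a and Slurp2 completed the 12, with differences of 1.90 to 2.35. For Bmp1, a procollagen protease, 1 of 2 further probes went the other way (-0.40), and the further probes of Anp32a and Arhgap26 were at 0.08 and 0.16.

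The 12 lowest were 4 Mup genes, Fetub, Slc22a7, Mas1, S100a8, S100a9, Lpl, Tmprss9 and Cyp2d10. Tmprss9, a transmembrane serine protease, measured -2.95, -3.13, -2.29 and -2.55 in HFD-UNX and -0.48, -0.28, -0.59 and -0.9995 in LFD-UNX, a 4.42-fold fall (adjusted p = 0.002) that held without each array in turn. Cyp2d10, a cytochrome P450, measured -4.24, -4.23, -4.20 and -4.66 in HFD-UNX and -2.89, -4.12, -1.17 and -1.03 in LFD-UNX, where arrays 3 and 4 again stood highest (adjusted p = 0.0412, and 0.436 without those 2). Its call was lost without 7 of the 8 arrays singly. 

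Well above background on all 4 HFD-UNX arrays and on none of the LFD-UNX arrays were 279 genes, of which 155 passed, and no gene showed the opposite. The share of spots detected also differed, at 69.4% to 70.3% on the HFD-UNX and 60.5% to 65.6% on the LFD-UNX arrays, and its part in these counts was not tested. The largest bounds were those of Gsx2, a homeobox gene (at least 5.22-fold higher), Speer4d (5.03), Dnah6, an axonemal dynein heavy chain (4.75), Hes5 (4.74) and 1700049L16Rik (4.18). Gsx2 measured -3.35, -2.96, -3.71 and -3.12 in HFD-UNX and -6.18, -6.17, -6.05 and -6.81 in LFD-UNX. Its adjusted p was 4.89e-05, and 0.0175 with the slide as a random block, but 0.344 with normexp. The other 4 had adjusted p-values of 0.346 to 0.567 with normexp. The second probe of Speer4d, which belongs to a family of close copies, was at -0.02.

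The diet difference in UNX mice was set against that in sham-operated mice, which kept both kidneys (HFD-sham, 3 arrays, on the same slides as HFD-UNX; LFD-sham, 4 arrays, on slide 3). No gene passed for the interaction (lowest adjusted p = 1.0, limma), and 218 genes had an unadjusted p under 0.05. Side by side, Pck1 differed by 1.09 in UNX and 0.71 in sham mice, with an interaction of 0.38 ± 0.24 (SE). Angptl4 differed by -1.02 in UNX and -1.70 in sham mice (0.68 ± 0.36), Cd3e by 1.25 and 0.67 (0.58 ± 0.37), Car3 by -1.73 and -1.64 (-0.09 ± 0.19), and S100a8 by -1.80 and -2.22 (0.42 ± 0.46). For Mup18 the values were -5.49 and -4.13, with an interaction of -1.36 ± 2.02. That no interaction passed does not show that the diet acted alike in both kinds of mice. The 3 lowest interaction p-values in each direction were those of Olfr225, Foxe1 and Lcn10 (above 0) and Aim2, Rims4 and F730043M19Rik (below 0), and all 6 were undetected, by the same criterion, on the 4 LFD-UNX arrays.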

How the data were processed

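Kidney RNA (100 ng, Cy3) was hybridised to 1-colour Agilent 4x44K arrays, 1 mouse each, per the labels' protocols. The authors deposited intensity values from Agilent Feature Extraction (10.7.3.1 per the file headers, 10.7 per the submitters' processing notes), background-subtracted and not normalized between arrays. Control and outlier-marked spots (74 to 273 per array) were dropped, spots of a probe averaged, and the 75th percentile of each array subtracted on the log2 scale. A probe was well above background on an array where any remaining spot was marked so. Probes so marked on at least 3 of 15 arrays were kept (28214), named through RefSeq accessions (GRCm38.p6, names only; 27234 of 39429 probes), and the brightest probe of each symbol tested (16032 genes). No spot was saturated.

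Diets were compared in R 4.3.3 with limma 3.58.1 and statmod 1.5.0, two-sided, in a fit of 4 group means to the 15 arrays, at a Benjamini-Hochberg adjusted p of 0.05 over all genes. The fit was tested on simulated data with independent noise on each array. That test cannot show what slide or scan-day effects do to the calls. Nothing says whether litters or cages were shared. The p-values measure the spread between these arrays, which within HFD-UNX includes the difference between slides 1 and 2. Same-numbered arrays of the 2 diets did not deviate together (correlations -0.15 to 0.05). This check shows no pairing by number but cannot exclude one, since the HFD-UNX arrays also differed by slide. The background alternative, normexp with an offset of 50, used median in place of mean signals. A slide used as a fixed block covered slides 1 and 2, since each low-fat group had 1 slide of its own; the random block covered all slides (correlation 0.406).

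The comparison and the 47 gene lists were chosen with earlier results of these data known. Named genes were the 12 highest and 12 lowest differences among passing genes well above background on all 8 arrays with no overlap, up to 4 passing members of each list (2 by p where none passed), the 5 largest bounds, and the 3 lowest interaction p-values per direction. Other list members are given as values and were chosen after these were seen. The floor of a bound was, on each array, the lowest detected signal or, if higher, that of the probe. A few list members are not reported here.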

Additional observations from a re-analysis of the deposited data

Results flagged for a closer look

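Among the 274 groups of 4 arrays behind the named genes, 14 held an array whose gap to its nearest neighbour was too large a part of the group's range by Dixon's limit for 4 values, where chance gives about 1 in 20. On the HFD-UNX side these were Fetub on array 3 (-2.925), Csf3r on array 3 (5.532), Asns on array 3 (-0.8352), Prf1 on array 2 (-2.115), Mcm6 on array 2 (0.9779), Atp6v0d2 on array 1 (-1.235), and Cyp2d10 (-4.665) and Lox (-8.094) on array 4. On the LFD-UNX side they were Slc27a4 (-3.019) and Hsp90ab1 (6.368) on array 2, Nr3c2 on array 3 (-3.804), Tmem229a (4.387) and Dnah6 (-6.564) on array 1, and Col4a4 on array 4 (1.832). The Prf1 and Col4a4 groups were narrow, with an SD of 0.03 in HFD-UNX for Prf1 and 0.11 in LFD-UNX for Col4a4. Of these genes, Fetub, Prf1, Atp6v0d2 and Dnah6 kept their calls without each array in turn.

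For 3 genes every HFD array lay on one side of the LFD mean in mice with 1 kidney and on the other side in sham mice. Foxe1 differed by 0.709 in UNX and -0.666 in sham mice. Aim2, an inflammasome DNA sensor, differed by -0.372 in UNX and 1.55 in sham mice, where the LFD-sham arrays were not all alike (-6.64 on array 1, -7.98 to -7.92 on the others). Rims4 differed by -0.726 in UNX and 0.453 in sham mice. None passed the test of this difference (limma interaction, adjusted p = 1.0), Aim2 was well above background on none of the 8 UNX arrays, and Foxe1 and Rims4 were well above background on 3 and 1 HFD-UNX arrays and on no LFD-UNX array. The UNX values of all 3 are thus read from signals not above background in LFD-UNX, and no direction is read from them.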

How the results depend on the processing

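The 2275 calls (1231 higher, 1044 lower in HFD-UNX) depended on the setting. With the slide as a random block 26 genes passed (22 higher, 4 lower), and with slides 1 and 2 as a fixed block 4095 (2177 higher, 1918 lower). With the HFD-UNX arrays of slide 1 only 5254 passed (2362 higher, 2892 lower), and with those of slide 2 only 1523 (987 higher, 536 lower). Normexp gave 319 (120 higher, 199 lower), no filter on dim probes 3596 (1292 higher, 2304 lower), array weights 7651 (3504 higher, 4147 lower) and an adjusted p under 0.01 781 (475 higher, 306 lower). Higher genes made up 54.1% of the calls, against 44.4% with quantile normalization, 37.6% with normexp and 35.9% with no filter. Without LFD-UNX 3 and 4, 529 passed (378 higher, 151 lower). Leaving out 1 array gave 1313 (without LFD-UNX 4) to 3308 calls (without HFD-UNX 3), 767 to 1580 higher and 526 to 1728 lower; the total also fell by over 1.5 times without LFD-UNX 1 (1349) or 3 (1403) and without HFD-UNX 1 (1485) or 2 (1365). With the replicate number as a block, 356 passed (283 higher, 73 lower), but the labels do not say that same-numbered arrays are paired. The other alternatives (quantile, cyclic loess, the percentile over detected probes, the authors' value table, well above background on all 8 arrays, the mean of a gene's probes, the 8 UNX arrays alone, an intensity trend) gave 1906 to 2449. Of 123 called named genes none reversed; 24 still passed with normexp, 6 with the random block and 56 without each array in turn. Among named genes that had not passed or were chosen by their interaction, Col4a4 turned to -0.0754 with the mean of its probes, Lcn10 ran from -0.106 to 0.0595 when 1 array was left out, being above 0 without LFD-UNX replicate 1, and Aim2 to 0.108 with quantile normalization and 0.103 with normexp. No gene passed for the interaction in the alternatives where it was fitted, which leave out those on the UNX arrays alone, on 1 HFD-UNX slide, with the replicate block or with only genes detected on all 8 arrays. Of 1222 list medians under alternatives, 35 moved by more than the spread between arrays. For these shifts the cause was not tested, beyond the fewer arrays or the other set of genes that some alternatives use. Signals near background limit what the dim genes can show, since their levels are bounds.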

Other observations

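Probes without a gene name were left out of the gene counts. Of the 28214 probes kept, 7156 had no name, and 988 of these (13.8%) passed between the diets, 710 higher and 278 lower in HFD-UNX, compared with 11.7% of the named probes. Further probes of passing genes went in the same direction as the chosen probe in 67.8% of 664 cases, and those of other genes in 58.2%.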
